A study of Mus musculus with 11 samples.

Results

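10 genes of the megakaryocyte and platelet programme were read in bone marrow hematopoietic stem cells (HSC): Pf4, Itga2b, Vwf, Gp1bb, Gp9, Selp, Itgb3, Ppbp, Gp5 and Gp6. They were chosen by name, as genes whose products are stored in platelet granules or form the receptors on the platelet surface, and were matched by symbol to 10 of the 37991 genes in the count table. RNA-Seq libraries of 3 genotypes were compared, 11 in all. Control HSC (4 libraries) came from mice that the labels call wild type and the study's methods call littermate controls, whose alleles are not given further for these libraries. NA10hd HSC (4 libraries, NA transgenic in the labels) came from mice in which a NUP98-HOXA10HD fusion inserted at the ROSA26 locus was switched on by Vav-Cre. NV HSC (3 libraries, NrasG12D transgenic in the labels) came from mice in which an NrasG12D allele at its own locus was switched on by the same Cre. All mice were C57BL/6 and 8 weeks old. Vav-Cre is known to act throughout the blood system, so neither allele was restricted to HSC in these mice. HSC were sorted from bone marrow as Lin- CD48- c-Kit+ Sca1+ CD135- CD150+ cells in aliquots of 1000. CD150 (Slamf1) was part of the gate, and CD41, the product of Itga2b, was not. The labels do not say whether the aliquots of a genotype came from separate mice. The study's figure captions call the columns of each population biological replicates. The p-values below measure the spread between these libraries, which may be technical in part.

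Megakaryocytes are the large bone marrow cells that shed platelets. HSC are known to express part of this programme themselves, and HSC with von Willebrand factor or CD41 have been described as primed towards the platelet lineage. Thrombopoietin acts both on megakaryocytes and on HSC, and the transcription factors GATA1, FLI1 and NF-E2 drive the late megakaryocyte genes. The 10 genes fall into 4 roles. Pf4 and Ppbp encode chemokines of the alpha granule. Vwf and Selp encode adhesion proteins of the same granule, which endothelial cells also make. Itga2b and Itgb3 encode the chains of the fibrinogen receptor, integrin alphaIIb beta3. Gp1bb, Gp9 and Gp5 encode chains of the GPIb-IX-V complex, the platelet receptor for von Willebrand factor, and Gp6 encodes the platelet collagen receptor.

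Total counts were 5464815 to 12610189 per control library, 7624638 to 12180230 per NA10hd library and 9981499 to 14283008 per NV library. NA10hd replicates 1 and 4 had the fewest genes with a count, 14430 and 13859. Xist and Y-linked counts showed that control replicates 1 and 4 and NA10hd replicates 1 to 3 held Y-linked counts only and NA10hd replicate 4 held Xist only. Control replicates 2 and 3 and all NV libraries held both. NA10hd replicate 4, without Y-linked counts, thus came from other mice than NA10hd replicates 1 to 3. Whether libraries with both came from pooled mice is not given in the sources used here. The count table covers the endogenous Nras gene as a whole and does not separate its alleles. The NV label could therefore not be checked on its allele, and the NA10hd label was not checked on the genes of the fusion here. Levels are given in CPM, the counts of a gene scaled to a common library total. A gene was called changed at an adjusted p under 0.05 with a fold above 1.5 (edgeR).

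The 10 genes were not expressed at one level. Levels between genes were compared as CPM per kilobase of exon. In control HSC, Pf4 stood highest at 35.4 ± 9.53 CPM per kilobase (SD, n = 4), and its libraries did not overlap those of the next gene, Gp9, at 19.1 ± 7.26. Gp9, Vwf, Itgb3, Itga2b and Selp followed at means of 19.1 down to 7.99, and each overlapped its neighbour in this order. Ppbp, Gp5 and Gp1bb lay lowest among the detected genes, at 2.83, 1.51 and 0.89 CPM per kilobase. Gp6 had a count of 0 in all 11 libraries. In NA10hd HSC the order was led by Gp9 at 30.4 ± 11.3 and Pf4 at 25.4 ± 8.31, which overlapped, and Ppbp was the lowest detected gene at 0.437 ± 0.510 (n = 4). In NV HSC the order was led by Pf4 at 269 ± 138 CPM per kilobase, without overlap with Itga2b in the next place at 26.6 ± 9.27 (n = 3). Vwf stood in the third place in control and NA10hd HSC and in the seventh place in NV HSC. Itga2b, Itgb3 and Selp each overlapped the gene that followed them in all 3 genotypes.

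**Figure D1:**
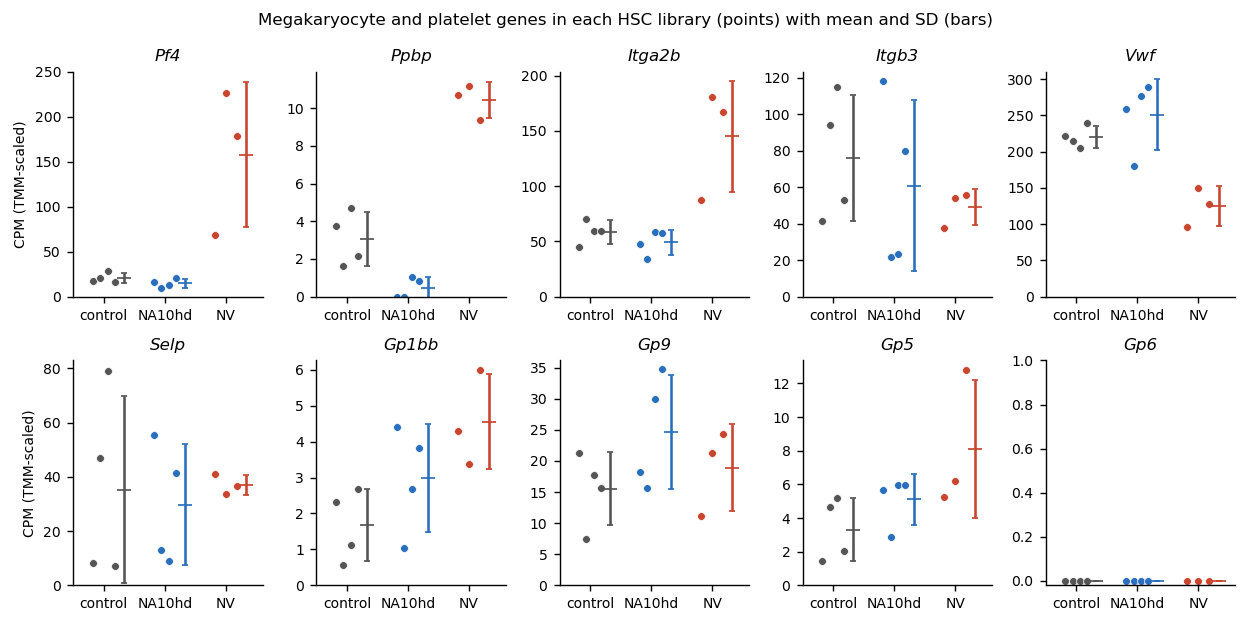
Level of each of the 10 genes in each library. The vertical axis of every panel starts at 0, or just below it for Gp6, and gives CPM (TMM-scaled). Points are libraries, and the bar beside them is the mean with its SD (control n = 4, NA10hd n = 4, NV n = 3). All NV points of Pf4, Ppbp and Itga2b lie above the control and NA10hd points, all NV points of Vwf lie below them, and Gp6 is at 0 throughout.

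NV HSC were compared with control HSC to ask how NrasG12D changed these genes. Pf4, Ppbp and Itga2b were higher in NV HSC, by 7.50-fold, 3.39-fold and 2.47-fold, and Vwf was 1.78-fold lower. These 4 of the 9 tested genes were called, 3 higher and 1 lower. Among all 13462 genes tested in this comparison, 343 (2.55%) were called higher in NV and 298 (2.21%) lower. Gp1bb, Gp5, Gp9, Itgb3 and Selp were not called, and Gp6 could not be tested. The libraries of the groups did not overlap for 6 of the 9 genes, the 4 called ones and Gp1bb and Gp5, against 18.9% of all genes tested. The median log2 difference of the 9 genes was 1.25, and that of all genes tested was -0.01.

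Pf4 (platelet factor 4, CXCL4, ENSMUSG00000029373) lies on chromosome 5 at 91201461 to 91202407 of NCBIM37, plus strand, the build of all gene positions given here. Its level was 17.3, 20.9, 28.5 and 16.1 CPM in control replicates 1 to 4, from 97 to 358 counts. In NV replicates 1 to 3 it was 68.4, 226 and 179 CPM, from 859 to 3343 counts. NV replicate 1 had less than the other NV libraries and still stood above every control library. The mean rose from 20.7 ± 5.58 (SD, n = 4) to 158 ± 81.0 CPM (n = 3), a log2 difference of 2.91 ± 0.34 (SE, edgeR, adjusted p = 0.000911). Pf4 was called in each of 15 alternative analyses, with log2 differences of 2.56 to 3.26. A bulk library does not tell more cells with the transcript from more transcript in each cell, for Pf4 or for any gene below.

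Ppbp (pro-platelet basic protein, CXCL7, ENSMUSG00000029372) is the neighbour of Pf4 on chromosome 5, at 91197544 to 91199086 on the same strand, with 2374 bases between the genes. Its level was 3.75, 1.61, 4.70 and 2.15 CPM in control replicates 1 to 4 and 10.7, 11.2 and 9.37 CPM in NV replicates 1 to 3. The groups were apart, and the NV libraries lay close to each other. The log2 difference was 1.76 ± 0.43 (SE, edgeR, adjusted p = 0.0324). The counts behind it were few, 16 to 59 per control library and 97 to 165 per NV library. The call was lost in 9 of 15 alternatives. Without control replicate 1, 2 or 4 the adjusted p was 0.0628, 0.0573 and 0.0825, and without NV replicate 1, 2 or 3 it was 0.0878, 0.116 and 0.0905. The log2 difference stayed between 1.54 and 2.08 in all 15. Pf4 and Ppbp, neighbours in one chemokine cluster, were thus both called higher in NV HSC, with a larger difference for Pf4.

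The promoter sequences of the genes that were called higher in NV HSC are printed here as the 250 bases before the start of the gene in the RefSeq table (GRCm38.p6), in the direction of the gene. They are Pf4 at chr5:90772185-90772434 (plus strand), Ppbp at chr5:90768268-90768517 (plus strand) and Itga2b at chr11:102469884-102470133 (minus strand). Capitals mark the letters GATAA, the core that GATA factors bind, and GGAA, the core that ETS factors such as FLI1 bind, each on either strand (TTATC and TTCC).
Pf4: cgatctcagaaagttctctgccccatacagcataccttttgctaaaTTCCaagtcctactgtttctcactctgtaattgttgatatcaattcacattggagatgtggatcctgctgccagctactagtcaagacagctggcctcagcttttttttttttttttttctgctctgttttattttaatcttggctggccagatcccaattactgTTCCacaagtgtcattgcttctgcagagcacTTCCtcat
Ppbp: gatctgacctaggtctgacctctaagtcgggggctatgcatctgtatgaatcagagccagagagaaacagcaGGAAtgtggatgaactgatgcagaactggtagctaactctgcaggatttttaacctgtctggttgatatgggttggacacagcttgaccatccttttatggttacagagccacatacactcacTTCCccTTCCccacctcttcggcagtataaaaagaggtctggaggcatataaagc
Itga2b: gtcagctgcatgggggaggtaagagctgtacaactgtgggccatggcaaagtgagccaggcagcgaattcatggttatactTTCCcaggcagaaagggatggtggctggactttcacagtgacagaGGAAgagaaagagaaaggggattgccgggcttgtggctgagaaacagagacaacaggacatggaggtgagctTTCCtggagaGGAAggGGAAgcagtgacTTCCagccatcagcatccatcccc
GGAA was present in these windows and GATAA was not. The table held windows of 300 bases, 250 before and 50 after the start, for 8 of the 10 genes, and Vwf and Itgb3 were not among them. GATAA was found in 4 of the 8 windows, in Pf4 at base 38 after the start, in Gp9 at 43 bases before it, in Gp5 at 93 and 77 bases before it and in Gp6 at 143 bases before it. Of all 32851 promoter windows of this length, 25.4% held GATAA. GGAA was found in 8 of 8 windows and in 96.0% of all promoters, so its presence sets no gene apart. These letters are a description of the sequence, and binding was not measured. The windows of Gp1bb and Selp, which were not called, held no GATAA, and that of Pf4, which was called, held it. GATAA thus did not separate called from uncalled genes. The window of Gp9, a gene that was not called, is printed as an example with the GATAA letters upstream of the start (chr6:87777820-87778069, plus strand).
Gp9: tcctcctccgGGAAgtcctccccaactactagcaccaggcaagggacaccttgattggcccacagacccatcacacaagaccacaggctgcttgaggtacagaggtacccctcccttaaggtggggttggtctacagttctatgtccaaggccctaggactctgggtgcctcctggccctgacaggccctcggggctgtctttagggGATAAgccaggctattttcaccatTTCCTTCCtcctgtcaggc

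Itga2b (integrin alphaIIb, CD41, ENSMUSG00000034664) lies on chromosome 11 at 102314611 to 102331436, minus strand. Its level was 44.5, 70.5, 59.1 and 59.6 CPM in control replicates 1 to 4 and 87.4, 181 and 167 CPM in NV replicates 1 to 3. As for Pf4, NV replicate 1 had the lowest NV level and exceeded the highest control library. The log2 difference was 1.30 ± 0.23 (SE, edgeR, adjusted p = 0.00684). Its partner Itgb3 (integrin beta3, CD61, ENSMUSG00000020689), on the same chromosome at 104469370 to 104531790, plus strand, did not follow. Itgb3 stood at 41.5, 94.1, 115 and 52.9 CPM in control and at 37.7, 54.1 and 55.8 CPM in NV libraries, which overlapped. Its log2 difference was -0.64 ± 0.31 (SE, edgeR, adjusted p = 0.279). The ratio of Itga2b to Itgb3, both per kilobase of exon, was 0.552 to 1.21 in control libraries with a median of 0.977. In NV libraries this ratio was 2.48 to 3.59 with a median of 3.21, above all control libraries. In NA10hd libraries it ran from 0.430 to 2.67 with a median of 1.23 and overlapped both. Beta3 also pairs with alphaV in other cells, whereas alphaIIb is known to reach the surface only with beta3.

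Vwf (von Willebrand factor, ENSMUSG00000001930), on chromosome 6 at 125496792 to 125636697, plus strand, moved the other way. Its level was 221, 214, 205 and 240 CPM in control replicates 1 to 4 and 95.3, 150 and 128 CPM in NV replicates 1 to 3. The mean went from 220 ± 14.7 (SD, n = 4) to 124 ± 27.3 CPM (n = 3), without overlap. The log2 difference was -0.83 ± 0.15 (SE, edgeR, adjusted p = 0.00792). The alternatives gave -0.99 to -0.67. Control replicates 2 and 3, the control libraries with both Xist and Y-linked counts as in all NV libraries, gave log2 differences of -0.76 for Vwf and 1.16 for Itga2b. With 2 control libraries left in that comparison the calls were lost (adjusted p = 0.0746 for Vwf and 0.0782 for Itga2b).

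Selp (P-selectin, CD62P, ENSMUSG00000026580), on chromosome 1 at 166045395 to 166080157, plus strand, varied more between libraries of one genotype than between genotypes. It stood at 8.22, 46.8, 79.0 and 6.99 CPM in control replicates 1 to 4. In NV replicates 1 to 3 it stood at 41.0, 33.5 and 36.5 CPM, inside the control range. The log2 difference was 0.04 ± 0.62 (SE, edgeR, adjusted p = 0.983). The control libraries with low Selp, replicates 1 and 4, were those with Y-linked counts only, and control replicates 2 and 3 held both Xist and Y-linked counts. Control replicates 1 and 4 also had the lowest control totals (5464815 and 7190197). NA10hd replicates 1 to 3, which held Y-linked counts only too, had Selp at 55.4, 13.1 and 9.07 CPM. The part of either in the level of Selp was not tested. Against control replicates 2 and 3 alone the log2 difference of Selp in NV HSC was -0.77 (edgeR, adjusted p = 0.157), and for Itgb3 it was -1.09 and called (adjusted p = 0.0347). Gm16587 and Gm16548, noncoding genes annotated on the opposite strand share 4.21% and 9.93% of the exon bases of Selp, with 28 and 65 counts over all libraries, and whether counting used the strand is not given in the sources used here.

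**Figure D2:**
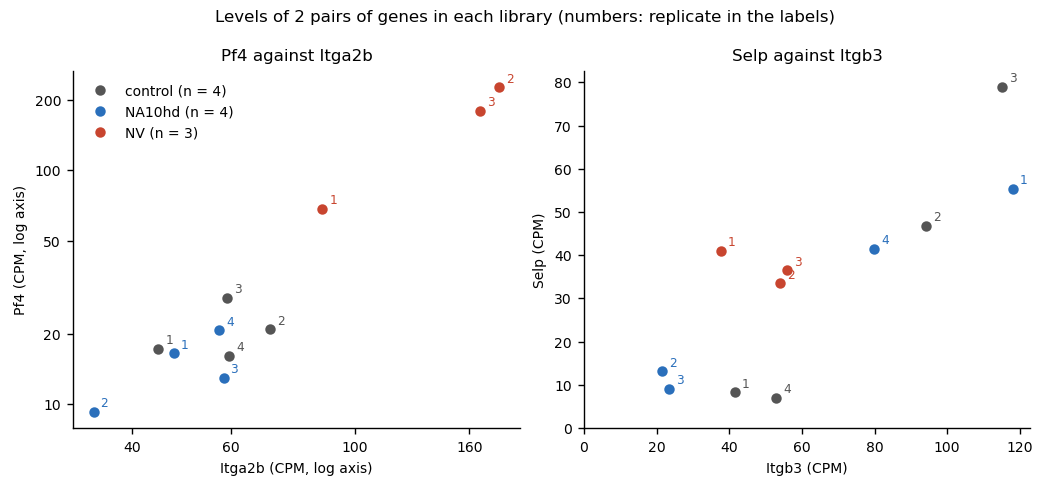
Pf4 against Itga2b (left, both axes logarithmic) and Selp against Itgb3 (right, linear axes), in CPM, with 1 point per library and the replicate number beside it. The NV libraries stand apart at the upper right on the left, and on the right control replicates 2 and 3 and NA10hd replicates 1 and 4 have both genes high, at 41.4 to 79.0 CPM of Selp.

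The chains of the von Willebrand factor receptor did not share the direction of Vwf. Gp1bb (GPIb beta, ENSMUSG00000050761), on chromosome 16 at 18620412 to 18622496, minus strand, was at 2.32, 0.568, 1.12 and 2.69 CPM in control and at 4.30, 3.38 and 5.99 CPM in NV libraries. These levels rest on 6 to 62 counts per library. The groups did not overlap, and the log2 difference of 1.46 ± 0.62 was not called (SE, edgeR, adjusted p = 0.215). Gp5 (GPV, ENSMUSG00000047953), on chromosome 16 at 30307772 to 30310865, minus strand, was at 1.43, 4.64, 5.18 and 2.02 CPM in control and at 5.25, 6.23 and 12.8 CPM in NV libraries. NV replicate 1 was just above control replicate 3, and the log2 difference of 1.25 ± 0.52 was not called (adjusted p = 0.212). Gp9 (GPIX, ENSMUSG00000030054), on chromosome 6 at 87728130 to 87729756, plus strand, was at 7.39 to 21.3 CPM in control and 11.1 to 24.4 CPM in NV libraries, with overlap and a log2 difference of 0.29 ± 0.36 (adjusted p = 0.737). Gp1ba, which encodes the ligand-binding chain of the complex, was at 13.2 ± 8.11 CPM in control (SD, n = 4) and 21.5 ± 1.76 CPM in NV HSC (n = 3) and was not called (log2 difference 0.71 ± 0.42, adjusted p = 0.402). The 4 chains of the complex thus all had positive differences, none of them called. Gp1bb shares 593 exon bases, 31.5% of its exons, with Sept5 on the same strand, to which 1 count was assigned over all 11 libraries.

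Gp6 (GPVI, ENSMUSG00000078810), on chromosome 7 at 4320315 to 4349346, minus strand, had a count of 0 in every library. A count of 0 over the group, taken as 3 counts, allows up to 0.0836 in control, 0.0745 in NA10hd and 0.082 in NV HSC, in CPM of the library totals without TMM factors. Such a limit takes in counting error alone, as copies of one molecule could not be told apart in these reads.

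**Figure D3:**
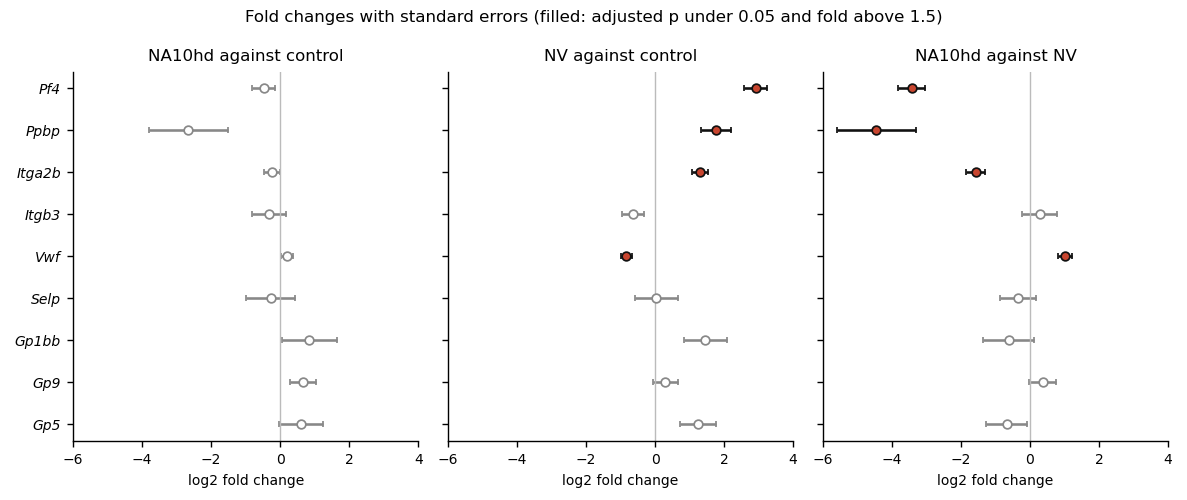
Log2 fold changes of the 9 tested genes with their standard errors in the 3 comparisons. Filled points are genes called at an adjusted p under 0.05 with a fold above 1.5: none in NA10hd against control, and Pf4, Ppbp, Itga2b and Vwf in NV against control and, with the opposite sign, in NA10hd against NV.

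NA10hd HSC were compared with control HSC to ask how the fusion gene changed the same genes. None of the 9 tested genes was called by edgeR, where 1 of 13060 genes (0.00766%) was called at all. At an unadjusted p under 0.05 there was 1 of the 9, Ppbp, and 1552 of all genes. DESeq2 called 240 genes and limma-voom called 2, among them 0 of the 9. The groups did not overlap for 1 of the 9 genes, again Ppbp, against 7.83% of all genes tested. The median log2 difference of the 9 genes was -0.25, and that of all genes tested was 0.02. On raw counts, the least different pair of NA10hd libraries differed with a chi-square of 39.7 per degree of freedom. It was 6.65 for the closest control pair and 15.1 for the closest NV pair. This value grows with library totals and leaves out TMM factors, and NV HSC had fewer pairs. It therefore does not rank the genotypes by spread.

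Ppbp had 0 counts in NA10hd replicates 1 and 2, and 1.04 and 0.852 CPM in replicates 3 and 4, from 12 and 6 counts. The limits for the counts of 0, as 3 counts, were 0.341 and 0.246 CPM of the library total without its TMM factor, a scale slightly apart from that of the levels. All 4 NA10hd libraries were thus below the lowest control library, at 1.61 CPM. The mean was 0.472 ± 0.550 CPM (SD, n = 4) against 3.05 ± 1.43 CPM in control, and the log2 difference of -2.66 ± 1.14 was not called (SE, edgeR, adjusted p = 0.380). Pf4, its neighbour, was at 16.5, 9.31, 13 and 20.7 CPM in NA10hd replicates 1 to 4, which overlapped control, with a log2 difference of -0.48 ± 0.34 (adjusted p = 0.613). Neither chemokine gene was therefore shown to differ between NA10hd and control HSC at these replicate numbers.

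The other 7 genes overlapped between NA10hd and control HSC. Itga2b was at 34.1 to 58.2 CPM in NA10hd libraries (log2 difference -0.25 ± 0.23, adjusted p = 0.707). Vwf was at 259, 180, 276 and 289 CPM, where replicate 2 lay below and the others above all control libraries, with a log2 difference of 0.19 ± 0.17 (SE, edgeR, adjusted p = 0.682). Gp1bb, Gp9 and Gp5 had means above control, at 2.99 ± 1.49, 24.7 ± 9.14 and 5.11 ± 1.5 CPM (SD, n = 4), with log2 differences of 0.84, 0.67 and 0.61 and adjusted p of 0.718, 0.506 and 0.755. Gp5 was at 5.65, 5.96 and 5.96 CPM in NA10hd replicates 1, 3 and 4 and at 2.86 CPM in replicate 2. Itgb3 was at 118, 21.6, 23.4 and 79.9 CPM and Selp at 55.4, 13.1, 9.07 and 41.4 CPM in NA10hd replicates 1 to 4. Both genes were high in replicates 1 and 4 and low in replicates 2 and 3. Replicates 1 and 4 were also the NA10hd libraries with the fewest genes detected, and the part of this in the levels of Selp and Itgb3 was not tested. The log2 differences were -0.33 ± 0.49 for Itgb3 and -0.27 ± 0.71 for Selp (adjusted p = 0.839 and 0.916), and neither had a stable sign: with the libraries that held Y-linked counts only, they were 0.19 and 1.75.

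NA10hd HSC were also compared with NV HSC directly, which tests whether the alleles differ in their effect on a gene. The same 4 genes were called: Vwf was higher in NA10hd HSC, and Pf4, Ppbp and Itga2b were lower. In this comparison 309 of 13461 genes (2.3%) were called higher in NA10hd HSC and 376 (2.79%) lower. The groups did not overlap for these 4 of the 9 genes, against 21.0% of all genes tested, and the median log2 difference of the 9 was -0.62. The NV libraries of this comparison were those compared with control above, so the calls in both do not count as separate evidence for NV.

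For Pf4, every NA10hd library was at or below 20.7 CPM and every NV library at or above 68.4 CPM. Its log2 difference was -3.42 ± 0.39 (SE, edgeR, adjusted p = 0.000781), and it was called in all 14 alternatives, at -3.78 to -3.07. For Ppbp the log2 difference was -4.45 ± 1.14 (adjusted p = 0.0466), with NA10hd libraries at 0 to 1.04 CPM and NV libraries at 9.37 to 11.2 CPM. Its call was lost without NA10hd replicate 1 (adjusted p = 0.0527) and without NV replicate 1, 2 or 3 (0.163, 0.186 and 0.181). Itga2b differed by -1.57 ± 0.27 (adjusted p = 0.00872), a call lost without NV replicate 2 or 3 (0.0734 and 0.0704). Vwf differed by 1.01 ± 0.21 (adjusted p = 0.0232), a call lost without NV replicate 1, 2 or 3 (0.125, 0.0665 and 0.126). In each of these genes the libraries of the genotypes stayed apart. Gp1bb (-0.62 ± 0.75), Gp5 (-0.67 ± 0.59), Gp9 (0.37 ± 0.39), Selp (-0.34 ± 0.52) and Itgb3 (0.28 ± 0.51) overlapped and were not called, with adjusted p of 0.604 to 0.831.

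Other genes of the pathway were read from lists of granule, receptor, signalling, cytoskeleton and transcription factor genes and of surface genes of megakaryocyte-primed HSC, 84 genes without the 10. In NV against control, 9 of the 78 tested were called higher (11.5%) and 10 lower (12.8%), and their median log2 difference was -0.02. Of all genes tested, 2.55% were called higher and 2.21% lower, and these shares are the background of the counts of NV against control that follow. Of the 18 megakaryocyte transcription factors, 1 was called, Gata1, which drives megakaryocyte and erythroid genes. Gata1 was at 8.94, 15.8, 13.4 and 15.9 CPM in control and at 72.7, 87.6 and 113 CPM in NV libraries, with a log2 difference of 2.74 ± 0.23 (SE, edgeR, adjusted p = 8.6e-05). The change of Gata1 was called in each of 15 alternatives and was close in size to that of Pf4. Its partners Fli1 and Nfe2 had log2 differences of 0.15 ± 0.21 and -0.05 ± 0.09 (adjusted p = 0.761 and 0.821).

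Of 21 tested platelet signalling and receptor genes, 7 rose and 2 fell in NV HSC. F2rl2 and F2r, which encode the thrombin receptors PAR3 and PAR1, rose by 2.81 ± 0.39 and 1.49 ± 0.16 on the log2 scale (SE, edgeR, adjusted p = 0.00212 and 0.000544). F2rl3, which encodes the thrombin receptor PAR4, was not called (log2 difference -0.02 ± 0.17, edgeR, adjusted p = 0.967). P2ry1 (an ADP receptor), Plek (pleckstrin, a protein kinase C substrate of platelets), Treml1 (TLT-1, a receptor of the alpha granule) and Syk (a kinase downstream of the collagen receptor) rose by 1.12, 1.08, 1.05 and 1.02, and Tbxa2r (the thromboxane receptor) by 0.93. The genes that fell were Gng11 (a G protein subunit) by 0.72 and Plcg2 (a phospholipase downstream of Syk) by 0.61 (edgeR, adjusted p = 0.0240 and 0.0183). Tbxa2r, F2rl3, Gng11 and Plcg2 were not read under the alternatives. Serpine2, an inhibitor of thrombin and an alpha-granule protein, rose by 2.61 ± 0.51 (adjusted p = 0.0114). The calls of P2ry1, Plek, Treml1 and Serpine2 were lost when NV replicate 2 or 3 was left out, with adjusted p up to 0.216. Treml1 also lost its call without NV replicate 1 (0.0515) or any control replicate (0.0567 to 0.0734), and P2ry1 without control replicate 1, 3 or 4 (0.0866, 0.0762 and 0.0787). With all 3 groups in one fit the calls of F2rl2, Syk, P2ry1, Plek and Treml1 were lost (adjusted p = 0.133, 0.104, 0.127, 0.0725 and 0.183). Against control replicates 2 and 3 alone those of Syk, Serpine2, P2ry1, Plek and Treml1 were lost (0.0540, 0.0936, 0.168, 0.0722 and 0.0883).

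Other genes of the lists fell in NV HSC. Fcer1g, the signalling chain that GPVI needs, fell by 2.07 ± 0.32, and Clec1b (CLEC-2, the podoplanin receptor) fell by 2.05 ± 0.50 on the log2 scale (SE, edgeR, adjusted p = 0.00299 and 0.0324). Of 13 thrombopoietin signalling genes, 2 fell: Pim1 by 1.71 ± 0.44 and Cish by 1.24 ± 0.19, both known targets of Stat5 (adjusted p = 0.0441 and 0.00299). The list of surface genes of megakaryocyte-primed HSC held 10 genes. Among them were Itga2b, Vwf, whose product is a granule protein, and Procr, which was also read as a marker of long-term HSC. Of these 10 genes, 1 rose (Itga2b) and 3 fell (Vwf, Cd63 and Procr), with a median log2 difference of -0.38. The granule protein gene Clu fell by 1.32 ± 0.21 (adjusted p = 0.00397). The calls of Clec1b and Pim1 were lost without any 1 of the NV libraries (adjusted p = 0.0665 to 0.119 for Clec1b and 0.0752 to 0.162 for Pim1), and also without control replicate 1 or 4 for Clec1b (0.114 and 0.0807) and control replicate 1, 2 or 3 for Pim1 (0.0816, 0.0525 and 0.114). Both calls were lost as well with limma-voom (0.0704 for Clec1b and 0.0646 for Pim1), with all 3 groups in one fit (0.0803 and 0.195) and against control replicates 2 and 3 alone (0.268 and 0.0722).

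**Figure D4:**
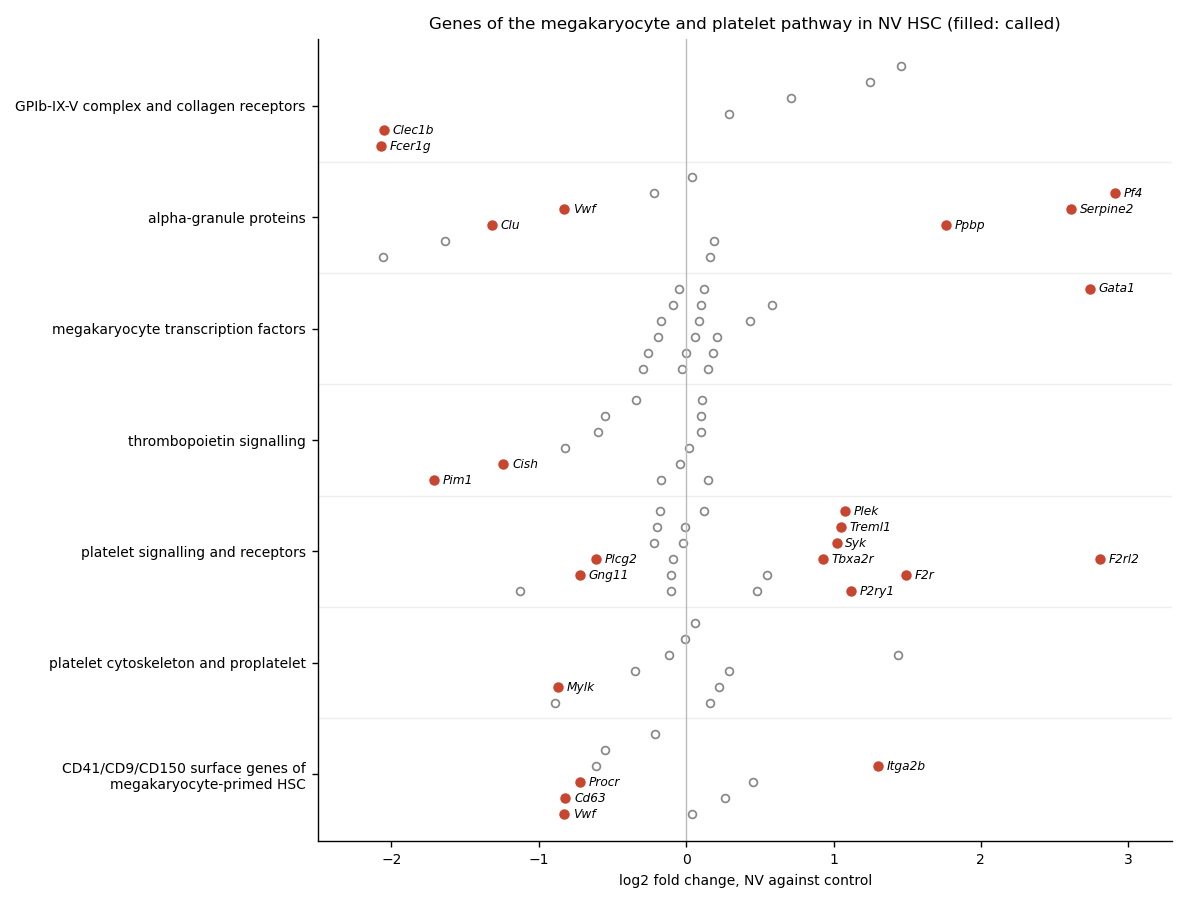
Log2 fold changes in NV against control HSC of all tested genes in 7 lists of the megakaryocyte and platelet pathway, the 9 tested genes included. A gene in several lists is drawn in each. Filled, named points were called (adjusted p under 0.05, fold above 1.5), and the vertical position within a list carries no value. Called genes lie on both sides of 0 in the lists of alpha-granule proteins, of platelet signalling and of surface genes of megakaryocyte-primed HSC.

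In NA10hd against control, 0 of 76 other pathway genes were called by edgeR, with 15 at an unadjusted p under 0.05, against 2 called by DESeq2 (Fcer1g and Procr, both higher) and 0 by limma-voom. In NA10hd against NV, 9 of 76 were called higher (11.8%) and 7 lower (9.21%), against 2.3% and 2.79% of all genes tested. Gata1 was lower in NA10hd HSC by 2.97 ± 0.45 on the log2 scale (SE, adjusted p = 0.00407), with NA10hd libraries at 3.89 to 19.8 CPM. Fcer1g was higher by 3.35 ± 0.34 (adjusted p = 0.000405), at 47.2 to 99.2 CPM in NA10hd libraries and 5.81 to 7.44 CPM in NV libraries. Cd9, a surface protein of megakaryocytes, was lower, with a log2 difference of -0.78 ± 0.19 (adjusted p = 0.0378). The call of Cd9 was lost without NA10hd replicate 2 or 3 or any NV library (0.0541 to 0.202). Slamf1, a gene of the sort gate, was at 107 ± 31.1, 117 ± 40.4 and 70.3 ± 7.03 CPM in control, NA10hd and NV HSC and was called in no comparison. Without control replicate 3 it was called lower in NV than in control HSC (log2 difference -0.79, adjusted p = 0.0130), and without NA10hd replicate 4 it was called higher in NA10hd than in NV HSC (0.91, adjusted p = 0.0290).

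Markers of other cells were read in the same libraries. The 12 defining markers of mature platelets, of which 6 belong to the 10 genes, summed to 77.6 to 91.0 CPM in control, 67.7 to 123 CPM in NA10hd and 163 to 367 CPM in NV libraries. Pf4 alone made up 68.4, 226 and 179 CPM of the sums of NV replicates 1 to 3, so the sum is no separate evidence. Of the 9 tested markers of this list, 8 had a positive log2 difference in NV against control HSC, with a median of 1.25, where Pf4, Ppbp, Treml1 and F2rl2 were called higher and Clec1b lower. Pf4, Ppbp, Gp1bb, Gp9 and Gp5 are among these 9, so this count and median are no separate evidence either. Of all 13462 genes tested, 6544 had a positive and 6918 a negative log2 difference. Tubb1, the tubulin of the platelet marginal band, had 9 and 5 counts in control replicates 1 and 4 and 0 counts in all other libraries, and Gp6 was at 0 throughout. Of the erythroid markers, which share Gata1 as regulator, Klf1 and Epor rose in NV HSC by 2.17 ± 0.50 and 1.37 ± 0.26 on the log2 scale (SE, edgeR, adjusted p = 0.0257 and 0.0105), 2 of 5 tested. The 12 erythroid markers summed to 1090 to 1500 CPM in control and 1390 to 1480 CPM in NV libraries, most of it Car2. Endothelial cells also express Vwf and Selp. The 12 endothelial markers summed to 349 to 391 CPM in control, 396 to 517 CPM in NA10hd and 305 to 355 CPM in NV libraries. Emcn and Cldn5 fell in NV HSC by 1.45 ± 0.22 and 3.71 ± 0.54 (adjusted p = 0.00306 and 0.00236), 2 of 8 tested. The defining endothelial marker Cdh5 had 11 and 2 counts in control replicates 3 and 4, was at 0 counts in control replicates 1 and 2, in NA10hd replicates 3 and 4 and in all NV libraries, had 1 count in NA10hd replicate 2 and reached 5.90 CPM in NA10hd replicate 1, and Sox17 was at 0 in every library. The part of these cells in the level of Vwf was not tested. Of the 12 markers of long-term HSC, all of them tested, 11 had a negative log2 difference in NV against control HSC, with a median of -0.51, and 9 had an unadjusted p under 0.05, as had 2626 of all 13462 genes tested. Procr and Fgd5 were called lower, and Ly6a, the 1 with a positive difference, was called higher. The list summed to 2390 to 3050 CPM in control, 2740 to 3390 CPM in NA10hd and 2080 to 2550 CPM in NV libraries. Of 4 myeloid and 2 lymphoid markers tested, edgeR called 0 in NV against control, with 1 of each at an unadjusted p under 0.05. The lymphoid one, Nkg7, had a log2 difference of 1.71 ± 0.46 (SE, adjusted p = 0.0530) and was called by DESeq2 and limma-voom. Myeloid and lymphoid markers summed to 751 to 803 and 68.3 to 93.8 CPM in NV libraries.

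How the 9 detected genes varied together over the 11 libraries is given as a description. Libraries share genotype and depth, so the values carry no test. Pf4 and Itga2b had the highest correlation (Pearson r = 0.96 of log2 CPM, and 0.82 after the group means were removed). Vwf correlated negatively with Pf4 and Itga2b over all libraries (r = -0.71 and -0.60), and positively once the group means were removed (0.73 and 0.82). The positive value did not hold in each genotype: in control HSC, replicate 3 had the highest Pf4 and the lowest Vwf, and replicate 4 the lowest Pf4 and the highest Vwf. Selp and Itgb3 formed another pair (r = 0.73, and 0.86 with group means removed). Pf4 and Ppbp, although neighbours, had r = 0.74 over all libraries and 0.27 within groups. The mean profile of the 9 genes was most like that of Ccdc34 (r = 0.958), Tmem14c (0.906), Whsc2 (0.900), Lsm4 (0.897) and Gemin8 (0.893) among 10689 other genes. None of these 5 belongs to the lists read here.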

How the data were processed

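The authors sorted HSC in aliquots of 1000 cells, amplified the cDNA, made Nextera XT libraries and sequenced them on a NextSeq500. Per the labels and the study's methods, reads were aligned to NCBIM37 with Hisat2 and counted per gene with featureCounts, and the raw counts were deposited by the authors without normalization. Versions, annotation release, strand setting and treatment of reads with several matches are not given in the sources used here. Symbols and positions came from GENCODE of the same build for 37205 of 37991 IDs, and promoters from the RefSeq table (GRCm38.p6). Titles gave the group of each library.

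Each comparison was fitted on its own libraries with edgeR 4.0.16 (R 4.3.3, TMM, default filter on low counts, quasi-likelihood test) and p was adjusted by Benjamini-Hochberg over all genes tested. CPM were counts over the library total times its TMM factor. SE was the log2 difference over the square root of F. Alternatives were DESeq2 1.42.0, limma-voom (limma 3.58.1), DESeq2 size factors in edgeR, no filter, a minimum of 10 counts per library, a joint fit of the 3 groups, a replicate block, no fold threshold, libraries alike in whether they held Xist and Y-linked counts, and each library left out in turn. Replicate numbers did not pair libraries.

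Named genes were the 10 genes, Gp1ba, Gata1, Fli1, Nfe2, Tubb1, Cd9 and Slamf1, the called genes of the lists (at most the 12 largest per comparison) and the 5 genes most like the mean profile. Tbxa2r, F2rl3, Gng11, Plcg2, Cd63 and Procr in NV against control, marker genes that were called and those at 0 were named after their values were seen. The members, lists and rules were chosen with earlier results of these data known. GO enrichment and tests of gene sets were left out, and some genes of the lists are not reported here. Figures were drawn with matplotlib 3.10.9.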

Additional observations from a re-analysis of the deposited data

Results flagged for a closer look

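In 18 groups of 4 libraries read for the 9 tested genes, 1 had a library far from the others: Gp5 in NA10hd HSC, where replicate 2 at 2.86 CPM stood below the others at 5.65 to 5.96 CPM. The gap was 0.901 of the range of the group, and Dixon's 95% critical value for 4 libraries was exceeded. Chance alone flags about 1 group in 20.

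The effects of the genotypes, each against control, differed for 4 genes by the direct test of NA10hd against NV (edgeR). The effect in NA10hd minus the effect in NV was -3.42 on the log2 scale for Pf4, -1.57 for Itga2b, -4.45 for Ppbp and 1.01 for Vwf. All 4 NA10hd libraries lay on that side of all 3 NV libraries in each of these genes. The groups did not overlap for 21.0% of all genes tested, and 2.3% were called higher and 2.79% lower in NA10hd HSC. The calls of Ppbp and Vwf were lost without any 1 of the NV libraries, and that of Itga2b without NV replicate 2 or 3.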

How the results depend on the processing

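The replicate numbers in the labels did not pair the libraries, with correlations of same-numbered deviations of -0.0803 to 0.0318. With the replicate block, 0 of the 9 genes were called in NA10hd against control, 3 in NV against control (432 of all genes, Ppbp lost, adjusted p = 0.128) and 3 in NA10hd against NV (581 of all genes, Vwf lost, 0.0512). The block also ended the calls of Clec1b (0.117), Pim1 (0.0912) and Treml1 (0.120) in the former and Cd9 (0.0784) in the latter.

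In NA10hd against control the count of called genes was 0 under all alternatives. In NV against control it was 4 and became 2 (Pf4 and Itgb3) when only libraries alike in holding Xist and Y-linked counts were compared (the same mix), where 2 control libraries remained. Leaving out 1 library gave 3 to 4. In NA10hd against NV it was 4 and leaving out 1 library gave 1 to 4, with 2 called without NV replicate 1 and 1 called without NV replicate 2 or 3. No same-mix set of libraries could be formed for that comparison. Over all genes, NV against control gave 641 calls, 1015 with DESeq2, 155 with all 3 groups in one fit, 301 with the same mix and 263 to 643 without 1 library. NA10hd against NV gave 685, 1495 with DESeq2, 1152 with all 3 groups in one fit and 146 to 771 without 1 library. NA10hd against control gave 1, 240 with DESeq2, 39 with all 3 groups in one fit and 8 without a filter.

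Signs turned for genes near 0 that were not called. In NA10hd against control, Selp became 0.08 (replicate block) and 1.75 (same mix) and ran from -0.75 to 0.51 without 1 library. Itgb3 became 0.19 (same mix). Gp1ba became 0.10 (limma-voom) and 0.08 (replicate block), and -0.43 to 0.34 without 1 library. Gata1 became 0.05 (same mix) and -0.61 to 0.07 without 1 library, Fli1 -0.28 to 0.10, Nfe2 -0.01 to 0.21 and Slamf1 -0.10 to 0.32. In NV against control, Selp became -0.77 (same mix) and -0.29 to 0.80 without 1 library, and Fli1 -0.02 to 0.35. In NA10hd against NV, Itgb3 became -0.22 (limma-voom) and -0.37 (replicate block), and -0.26 to 0.59 without 1 library. The cause was not tested. Of 1060 values of single genes, 915 kept their direction and side of the threshold, 117 lost a call, 5 gained one and 23 turned sign. Low counts of Ppbp, Gp1bb and Gp5 limit what these libraries can show.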

Other observations

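Selp and Itgb3 varied together within genotypes, and genes whose deviations from the group means followed theirs most closely were sought after this was seen. Among 10689 genes these were Nolc1 (r = 0.979), Sult1a1 (0.977), Cct8 (0.975), Tsr2 (0.974) and Sae1 (0.972), over 11 libraries and with no test. Sult1a1 was at 261, 476, 532 and 222 CPM in control replicates 1 to 4 and at 455, 142, 153 and 365 CPM in NA10hd replicates 1 to 4. Nolc1, which encodes a nucleolar protein, was at 56.8, 122, 121 and 53.0 CPM in control and 67.0, 28.9, 30.6 and 66.9 CPM in NA10hd replicates 1 to 4. Control replicates 2 and 3 and NA10hd replicates 1 and 4 were the high libraries of their genotype for both genes, as they were for Selp. In NV libraries the spread was small, at 167 to 174 CPM for Sult1a1 and 78.7 to 84.3 CPM for Nolc1.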
